A study of Homo sapiens with 3 samples.

Results

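In LNCaP cells, 235 of 12256 genes measured lay on the same side of a control culture, and by a similar amount, in 2 kinds of medium conditioned by adipose tissue. Of these, 110 were higher than control in both (0.898% of the genes measured) and 125 were lower in both (1.02%). A gene was counted when each adipose library differed from control by at least 1.5-fold, on the same side, and the 2 differences lay within 1.3-fold of each other. Genes with a mean of 50 or more reads per library were measured, which 12256 of 58884 gene rows reached. The values below therefore describe how the genes were chosen and are no test of them.

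The study exposed LNCaP, an established androgen-responsive prostate cancer line, to conditioned medium (CM) and sequenced its RNA. After 24 h in complete medium the cells were kept for 72 h in medium holding 2% fetal bovine serum, of which 50% was control-CM, PVAT-CM (marked normal by the submitters) or PPAT-CM (marked tumor). PPAT is periprostatic adipose tissue, the fat around the prostate, while the labels leave PVAT unexpanded. Each medium had 1 library, so nothing below has a replicate check, and all differences are between libraries.

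Adipose tissue secretes fatty acids, adipokines and cytokines, and cells can answer such a mixture through several routes. Type I interferons raise antiviral genes, many of whose promoters hold the interferon-stimulated response element (ISRE). Misfolded protein in the endoplasmic reticulum (ER) raises ATF4 and chaperone genes, and a shortage of amino acids raises ATF4. Low oxygen acts through HIF1A on genes such as ADM and CA12. How control-CM was made is not described in the labels.

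Both comparisons used the same control-CM library. A departure of that library alone would place genes on 1 side in both adipose libraries by the same amount, and it cannot be told apart from a response shared by both media. The control-CM, PVAT-CM and PPAT-CM libraries held 16534649, 14174241 and 16965584 counts, and the genes of the mitochondrial chromosome took 30.8%, 21.1% and 15.5% of them. Values are raw counts and CPM (counts as a rate of the library total) scaled by TMM, and a gene with no read may have stood at up to 0.21 scaled CPM (a floor of 3 counts). Intervals are 95% exact binomial (Clopper-Pearson) and cover counting error only; the reads carry no molecular identifiers and are not independent molecules. In bulk RNA, fewer cells expressing a gene and less of its RNA per cell cannot be told apart. The luminal prostate markers summed to 5250, 5390 and 4040 scaled CPM in the same order, and 14 of 14 were measured. Of 13 adipocyte markers 6 had no count in any library and 3 passed the filter, of 16 leukocyte markers 0 passed, and of 11 endothelial markers 0 passed.

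The promoters of 6 members are shown for the motif searches and the gene pair described below. They were taken from RefSeq (GRCh38.p14), run 5′ to 3′ on the gene's own strand from 250 bases before to 50 bases after the first listed start, and carry motif matches in capitals. The motifs were the ISRE core (GAAANNGAAA), the ATF4 element core (TGATGNAA) and the core of the antioxidant response element, or ARE (TGACNNNGC), each read on both strands. The first 3 belong to the interferon genes, the next 2 to genes with the ATF4 core, and the last spans the shared start region of EFCAB11 and TDP1.
OAS3, chr12:112938224-112938523, plus strand: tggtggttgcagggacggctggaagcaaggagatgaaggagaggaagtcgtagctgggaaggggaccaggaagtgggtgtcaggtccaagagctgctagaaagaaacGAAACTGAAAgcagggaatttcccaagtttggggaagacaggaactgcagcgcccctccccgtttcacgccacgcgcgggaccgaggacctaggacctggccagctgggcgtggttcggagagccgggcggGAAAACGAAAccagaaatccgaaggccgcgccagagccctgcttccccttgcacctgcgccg
IFIT3, chr10:89327747-89328046, plus strand: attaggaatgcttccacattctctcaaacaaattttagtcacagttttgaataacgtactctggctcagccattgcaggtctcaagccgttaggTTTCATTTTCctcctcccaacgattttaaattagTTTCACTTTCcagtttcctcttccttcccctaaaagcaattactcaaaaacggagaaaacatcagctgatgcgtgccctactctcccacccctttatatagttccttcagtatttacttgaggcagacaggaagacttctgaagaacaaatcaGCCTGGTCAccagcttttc
IFI44, chr1:78649539-78649838, plus strand: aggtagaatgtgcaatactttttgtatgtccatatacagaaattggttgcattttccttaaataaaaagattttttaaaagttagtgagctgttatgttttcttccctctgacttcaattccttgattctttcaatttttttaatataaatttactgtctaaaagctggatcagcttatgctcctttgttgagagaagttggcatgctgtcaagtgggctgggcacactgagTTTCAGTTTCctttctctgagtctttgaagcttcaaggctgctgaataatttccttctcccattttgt
HRK, chr12:116881392-116881691, minus strand: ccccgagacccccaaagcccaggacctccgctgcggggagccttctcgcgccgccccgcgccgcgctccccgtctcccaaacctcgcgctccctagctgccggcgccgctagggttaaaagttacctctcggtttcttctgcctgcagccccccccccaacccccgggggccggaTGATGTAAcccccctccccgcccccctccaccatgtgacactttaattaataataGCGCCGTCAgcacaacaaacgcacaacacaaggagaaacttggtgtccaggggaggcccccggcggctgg
MTHFD1L, chr6:150866236-150866535, plus strand: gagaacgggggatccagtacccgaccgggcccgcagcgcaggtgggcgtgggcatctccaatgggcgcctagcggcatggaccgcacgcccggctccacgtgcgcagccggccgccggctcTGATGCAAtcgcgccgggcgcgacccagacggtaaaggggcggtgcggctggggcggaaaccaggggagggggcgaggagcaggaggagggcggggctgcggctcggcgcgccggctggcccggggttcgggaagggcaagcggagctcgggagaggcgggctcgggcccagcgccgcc
EFCAB11, chr14:89954728-89955027, minus strand: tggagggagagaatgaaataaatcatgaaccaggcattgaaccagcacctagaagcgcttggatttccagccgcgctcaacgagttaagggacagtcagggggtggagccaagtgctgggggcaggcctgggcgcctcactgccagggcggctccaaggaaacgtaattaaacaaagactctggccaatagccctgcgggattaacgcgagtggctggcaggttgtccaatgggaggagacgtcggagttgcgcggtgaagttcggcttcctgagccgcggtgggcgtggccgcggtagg
In OAS3 both capital runs are ISRE cores. IFIT3 has 2 ISRE cores, written as their reverse complement, and 1 ARE core near its end, and IFI44 has 1 ISRE core. HRK has 1 ATF4 core followed by 1 ARE core on the other strand, and MTHFD1L has 1 ATF4 core. A match is a run of letters and not a shown binding site, and the shares of genes with a match are given below beside those of all genes measured.

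**Figure D1:**
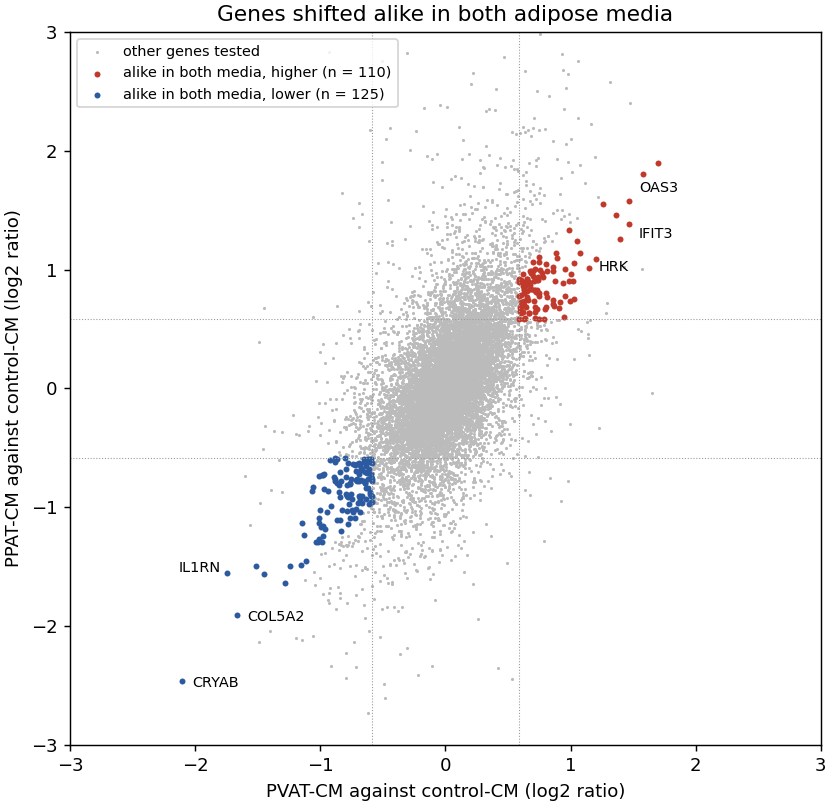
Log2 ratio of each gene in PPAT-CM against control-CM (vertical) by its ratio in PVAT-CM against control-CM (horizontal), with 1 point per gene and dotted lines at 1.5-fold. The 110 higher (red) and 125 lower (blue) genes lie along the diagonal by choice, most of them close to the lines; both axes share the control-CM library, and 41 other genes lie beyond the plotted range of 3.

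The members were a smaller part of what moved in PPAT-CM than in PVAT-CM. In PPAT-CM, 1475 genes were at least 1.5-fold higher than control (12.0% of those measured) and 1068 lower (8.71%), while in PVAT-CM 386 were higher (3.15%) and 428 lower (3.49%). The 110 and 125 members were 7.46% and 11.7% of those genes in PPAT-CM and 28.5% and 29.2% in PVAT-CM. Past 1.5-fold in both media stood 246 genes on the higher side, of which the 110 were 44.7%, and 213 on the lower side, of which the 125 were 58.7%. PPAT-CM lay further from control by more than 1.3-fold in 132 of the higher and 82 of the lower genes, and PVAT-CM in 4 and 6. On opposite sides, each by 1.5-fold or more, were 22 genes.

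Most members moved by less than 2-fold. Among the higher genes the median of the mean shift (the mean of both log2 ratios) was 0.78, or 1.72-fold, with a highest value of 1.8. The lower genes had a median of -0.80, or 1.74-fold, reaching -2.29, and over all genes measured the median was 0.02. In both media at least 2-fold higher were 12 genes and at least 2-fold lower 17. The counting intervals against control excluded 1 in both media for 109 of the 110 higher and for 125 of the 125 lower genes. As the genes were chosen by these same ratios, such counts follow largely from the choice and are no test. The interval of the ratio between PPAT-CM and PVAT-CM, a ratio the rule held within 1.3-fold, included 1 for 83 higher and 109 lower genes. For the others the media differed by more than counting error, though by less than 1.3-fold. PPAT-CM was the further from control in 79 of the higher and 87 of the lower genes.

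Many members had low counts. The control-CM count was under 100 for 50 of the higher genes, and 21 of them passed the filter with a control-CM count under 50. Among those 21 were OR7E91P, TXNDC12, OAS3, IFIT3 and MRPS18A, which had the highest mean shifts of all members. On the lower side 34 genes had under 100 counts in control-CM, and 12 passed with both adipose counts under 50. CRYAB, with the lowest mean shift, was among those 12. The median of the mean counts was 173 for the higher and 123 for the lower genes, against 462 over all genes measured.

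The scaling moved the balance of the sides. With library totals in place of TMM, 322 genes were higher alike and 56 lower, so that the higher side made up 85.2% of the class in place of 46.8%, and the median shift of all genes went from 0.02 to 0.21. Of the members, 95 of 110 higher and 46 of 125 lower genes stayed in the class under total counts. All 110 and all 125 remained on their side of control in both media under each of 4 other scalings, and 79 and 38 stayed in the class under every one of those 4. Of members named below, ELOVL5, MTHFD1L, JMJD8, DNAH5, KIF9, SREBF1, CA12, COL6A1, ACHE, KANK1, SLC9A5 and MT-TL1 left the class under total counts. Under upper quartile factors P4HB, SUMF2, SSR2, MTHFS, DNAJC6, ELOVL5, CRYAB, CYP3A5, EFCAB11, PLOD2, MT-TP and MT-TL1 left it. SLC9A5 also left it with DESeq2 size factors, and SSR2 and DNAJC6 with TMM factors that omit mitochondrial genes.

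Among the higher members, 15 genes were grouped by role as genes of the endoplasmic reticulum. How many such genes were measured was not counted, so whether 15 exceeds their general share was not tested. The role groups named here and below were drawn up after the values were seen, order the account alone, and hold 47 of the higher and 42 of the lower genes. The 15 ER genes were 1.5-fold to 3.23-fold higher by the mean shift, namely TXNDC12, PRDX4, ERP29, SLC39A7, ERLEC1, MANF, TMED2, JMJD8, HYOU1, DDOST, SUMF2, STT3A, CALU, P4HB and SSR2. Among their roles are disulfide formation, protein folding, N-glycosylation and transport into and out of the ER, though not every gene has 1 of these.

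P4HB (chr17:81843159-81860694 in GRCh38) encodes protein disulfide isomerase, which also serves as a subunit of collagen prolyl hydroxylase. It had 3578 (control-CM), 5078 (PVAT-CM) and 6954 (PPAT-CM) counts, or 236, 356 and 378 scaled CPM. Against control it was 1.51-fold higher in PVAT-CM (1.45 to 1.58) and 1.60-fold in PPAT-CM (1.54 to 1.67), so both adipose libraries stood above control and close to each other. ERP29, a chaperone of the ER lumen, had 1681, 3032 and 3767 counts in the same order, 1.92-fold (1.81 to 2.04) and 1.85-fold (1.74 to 1.96) above control. Its ratio between the adipose libraries was 1.04, with an interval of 0.989 to 1.09 that included 1. PRDX4, the peroxiredoxin of the ER, had 477, 888 and 1086 counts and was 1.98-fold (1.77 to 2.22) and 1.88-fold (1.68 to 2.10) higher.

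MANF, a secreted protein that is retained in the ER and released under ER stress, had 601 (control-CM), 935 (PVAT-CM) and 1280 (PPAT-CM) counts. It was 1.66-fold (1.49 to 1.84) higher in PVAT-CM and 1.76-fold (1.59 to 1.94) in PPAT-CM. HYOU1, an ER chaperone of the HSP70 family, had 674, 1102 and 1301 counts, and here PVAT-CM was the further from control, with 1.74-fold (1.58 to 1.92) against 1.59-fold (1.45 to 1.75). The oligosaccharyltransferase subunits DDOST and STT3A, which attach N-glycans, were 1.63-fold and 1.59-fold higher by the mean shift. On the same strand the exons of DDOST overlap PINK1-AS and those of STT3A overlap CHEK1.

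TXNDC12, an ER thioredoxin, had the second largest shift among the higher genes but few reads. Its counts were 20, 57 and 86, and its exons overlap KTI12 on the same strand and BTF3L4 on the other, so its reads may be shared with them. No source used here says whether the authors counted by strand. On either strand 54.5% of the higher and 48% of the lower members had exons overlapping another gene, beside 49.6% of all genes measured. Not every such overlap is named here.

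A separate list of ER chaperones and unfolded protein response genes had 37 measured members. Of these P4HB, HYOU1 and MANF were in the class, or 8.11% beside 0.898% of all genes measured. The other genes of the ER role group above are not on this list. In PPAT-CM 5 of the 37 were at least 1.5-fold higher and 0 lower, and in PVAT-CM 7 were higher and 0 lower. Of all genes measured, 12.0% were higher in PPAT-CM and 3.15% in PVAT-CM, so the count in PPAT-CM was close to the general share. The list's median was 0.17 on the log2 scale in PPAT-CM and 0.44 in PVAT-CM, beside 0.03 and 0.02 over all genes. XBP1, which encodes a transcription factor of the unfolded protein response, was higher in both but not alike: 1823 (control-CM), 2837 (PVAT-CM) and 8393 (PPAT-CM) counts, or 1.66-fold and 3.80-fold above control. Over the members' promoters with a sequence, the ER stress element (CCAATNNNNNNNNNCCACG, searched after the values were seen) occurred in 0 of 88 higher genes and in 14 of 9512 genes measured.

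OAS3, IFI44 and IFIT3 were the class members of a type I interferon list with 33 measured genes, or 9.09% of it, beside 0.898% of all genes measured on the higher side. Of the 33 genes, 19 were at least 1.5-fold higher in PPAT-CM, 13 in PVAT-CM, and 7 in both. The shares of all genes measured were 12.0% and 3.15%, with 246 of 12256 genes higher in both. OAS3 makes the 2′-5′ oligoadenylates that activate RNase L. It had 32 (control-CM), 84 (PVAT-CM) and 117 (PPAT-CM) counts, or 2.11, 5.89 and 6.36 scaled CPM, and was 2.79-fold (1.84 to 4.34) and 3.02-fold (2.02 to 4.61) higher. IFIT3, an antiviral protein of the IFIT complex, had 37, 97 and 118 counts and was 2.79-fold (1.89 to 4.19) and 2.63-fold (1.80 to 3.92) higher. IFI44, an interferon-induced cytoplasmic protein, had 119, 176 and 274 counts and was 1.57-fold (1.24 to 2.00) and 1.90-fold (1.53 to 2.38) higher. That control-CM was lowest in each of the 3 genes follows from their choice. OAS3 and IFIT3 had under 50 counts in control-CM and passed the filter through the adipose libraries, where they were high. The share of 9.09% is therefore a description and no test. The interval of the ratio between the adipose libraries included 1 in each, which the 1.3-fold rule favours at low counts.

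Other members of the same list lay apart in the 2 media. IFI6, an interferon-induced antiviral protein, had 312 (control-CM), 922 (PVAT-CM) and 369 (PPAT-CM) counts, so it was 3.14-fold higher in PVAT-CM (2.76 to 3.59) and 1.03-fold lower in PPAT-CM (0.879 to 1.2, an interval that includes 1). UBE2L6, the conjugating enzyme for ISG15, had 31, 50 and 578 counts, 1.72-fold and 15.4-fold above control. OAS1, another oligoadenylate synthetase, had 37, 78 and 67 counts and reached 2.24-fold in PVAT-CM and 1.49-fold in PPAT-CM, just short of the threshold. Antigen presentation, with 19 measured genes, had 8 past 1.5-fold higher in both media and 0 in the class. The guanylate binding and APOL list had 4 of 6 higher in both and 0 in the class. Of all genes measured 0.898% were higher alike, a share at which lists of this size may hold none. In these lists the medians were 1.63 in PPAT-CM against 0.54 in PVAT-CM, and 3.92 against 1.09, on the log2 scale.

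The ISRE core occurred in 3 of the 88 higher genes with a promoter sequence (3.41%), which were OAS3, IFIT3 and IFI44. Over all genes measured it occurred in 238 of 9512 (2.50%), and over all 27305 promoters in 3.65%. Among the genes that were higher in both media with PPAT-CM further, it occurred in 10 of 104 (9.62%). Where a gene has several starts, the first listed was used.

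The higher members ATF3, HRK, ULBP1 and KLF6 have roles in stress responses or cell death. ATF3 (chr1:212565334-212620777 in GRCh38), a stress-induced transcription factor, had 375 (control-CM), 686 (PVAT-CM) and 916 (PPAT-CM) counts, or 24.7, 48.1 and 49.8 scaled CPM. It was 1.95-fold (1.71 to 2.21) and 2.01-fold (1.78 to 2.28) higher, and the ratio of the adipose libraries was 1.04 (0.937 to 1.14). HRK, a BH3-only protein that promotes apoptosis, had 67, 140 and 165 counts and was 2.22-fold (1.65 to 3.02) and 2.03-fold (1.52 to 2.74) higher. ULBP1, a surface ligand of the natural killer receptor NKG2D, had 144, 275 and 328 counts and was 2.03-fold (1.65 to 2.50) and 1.88-fold (1.54 to 2.30) higher. KLF6, an immediate early transcription factor, had 78, 150 and 160 counts, and was 2.05-fold and 1.69-fold higher. In the list of p53 targets and apoptosis genes HRK was the 1 class member of 40 measured. Of the 40, 10 were past 1.5-fold higher and 5 lower in PPAT-CM, and 4 were higher and 0 lower in PVAT-CM. The shares of all genes measured were 12.0% and 8.71% in PPAT-CM, and 3.15% and 3.49% in PVAT-CM. In the list of immediate early genes ATF3 and KLF6 were the 2 of 17, and the medians were 0.55 in PPAT-CM and 0.02 in PVAT-CM. For both lists, the share of all genes measured that were higher alike was 0.898%.

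ATF3 and ULBP1 also belong to a list of 34 measured ATF4 target genes, of which 14 were at least 1.5-fold higher in PVAT-CM and 4 in PPAT-CM, with 3 in both. Of all genes measured, 3.15% were higher in PVAT-CM and 12.0% in PPAT-CM. Higher in both were 246 of 12256 genes, and 0.898% were higher alike. The medians of this list were 0.46 in PVAT-CM and 0.11 in PPAT-CM. GDF15, a secreted stress cytokine, had 11665 (control-CM), 19663 (PVAT-CM) and 11060 (PPAT-CM) counts, 1.79-fold higher in PVAT-CM and 1.28-fold lower in PPAT-CM. SLC7A5, a large neutral amino acid transporter, was 1.57-fold and 3.54-fold higher. The ATF4 element core occurred in 4 of the 88 higher genes (ATF3, TMEM154, MTHFD1L and HRK, or 4.55%), in 1 of the 72 lower genes with a sequence (1.39%) and in 1.60% of the genes measured. The share over all promoters of the table was 3.67%.

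Enzymes of 1-carbon and methionine metabolism were MAT2A, which makes S-adenosylmethionine, MTHFD1L of the mitochondrial folate pathway, and MTHFS, which returns 5-formyltetrahydrofolate to use. MAT2A had 496 (control-CM), 784 (PVAT-CM) and 1052 (PPAT-CM) counts and was 1.68-fold (1.5 to 1.89) and 1.75-fold (1.57 to 1.95) higher. MTHFD1L had 195, 279 and 442 counts, 1.52-fold and 1.87-fold above control. The glutathione synthesis gene GCLM, the modifier subunit of glutamate-cysteine ligase, had 400, 617 and 860 counts and was 1.64-fold (1.44 to 1.87) and 1.77-fold (1.57 to 2.00) higher. GCLC, which encodes the catalytic subunit, had 1961, 1343 and 4972 counts, 1.37-fold lower in PVAT-CM and 2.09-fold higher in PPAT-CM. GCLM was the 1 member of the class among 21 measured NRF2 and glutathione genes, while 0.898% of all genes measured were higher alike. The ARE core stood in its promoter, as in 14.8% of the higher genes and 15.5% of all genes measured.

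Translation genes were represented by RPS29 and RPL30, both ribosomal proteins, the elongation factor subunit EEF1B2, the seryl-tRNA synthetase SARS1, and AIMP2, a scaffold protein of the multisynthetase complex. RPS29 had 3284 (control-CM), 5158 (PVAT-CM) and 6971 (PPAT-CM) counts and was 1.67-fold (1.60 to 1.75) and 1.75-fold (1.68 to 1.83) higher, and RPL30 was 1.57-fold and 1.89-fold higher. Of 77 measured cytosolic ribosomal proteins 2 were in the class, 17 were past 1.5-fold higher in PPAT-CM and 3 in PVAT-CM, and the list's median mean shift was 0.27. Of all genes measured, 0.898% were higher alike, 12.0% higher in PPAT-CM and 3.15% in PVAT-CM. Ribosomal protein genes have many processed copies, so reads may be divided among them. SARS1 was the 1 member among 20 measured aminoacyl-tRNA synthetases, with 1465, 2129 and 2958 counts.

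Lipid enzymes in the higher group were ELOVL5, an elongase of polyunsaturated fatty acids, HACD3, a dehydratase of the elongation cycle, and LPCAT3, which places polyunsaturated chains into phospholipids. ELOVL5 had 1449 (control-CM), 2047 (PVAT-CM) and 3329 (PPAT-CM) counts and was 1.5-fold (1.40 to 1.61) and 1.90-fold (1.78 to 2.02) higher. SREBF1, whose product SREBP-1 drives fatty acid synthesis genes, went the other way with 5954, 3714 and 4383 counts, or 393, 261 and 238 scaled CPM. It was 1.51-fold lower in PVAT-CM (1.45 to 1.57) and 1.65-fold lower in PPAT-CM (1.58 to 1.71), and it left the class under total counts, as did ELOVL5. Of 17 measured genes of fatty acid synthesis and desaturation these were the 2 in the class. SCD, the stearoyl-CoA desaturase, was 1.10-fold higher in PVAT-CM and 1.90-fold lower in PPAT-CM. Cholesterol synthesis had 0 of 23 measured genes in the class, fatty acid oxidation and PPAR targets 0 of 25, and androgen receptor targets 0 of 24, beside 1.92% of all genes measured, a share at which lists of this size may hold none. KLK3, which encodes prostate-specific antigen, had 10286, 9982 and 4577 counts, 1.03-fold higher in PVAT-CM and 2.72-fold lower in PPAT-CM.

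**Figure D2:**
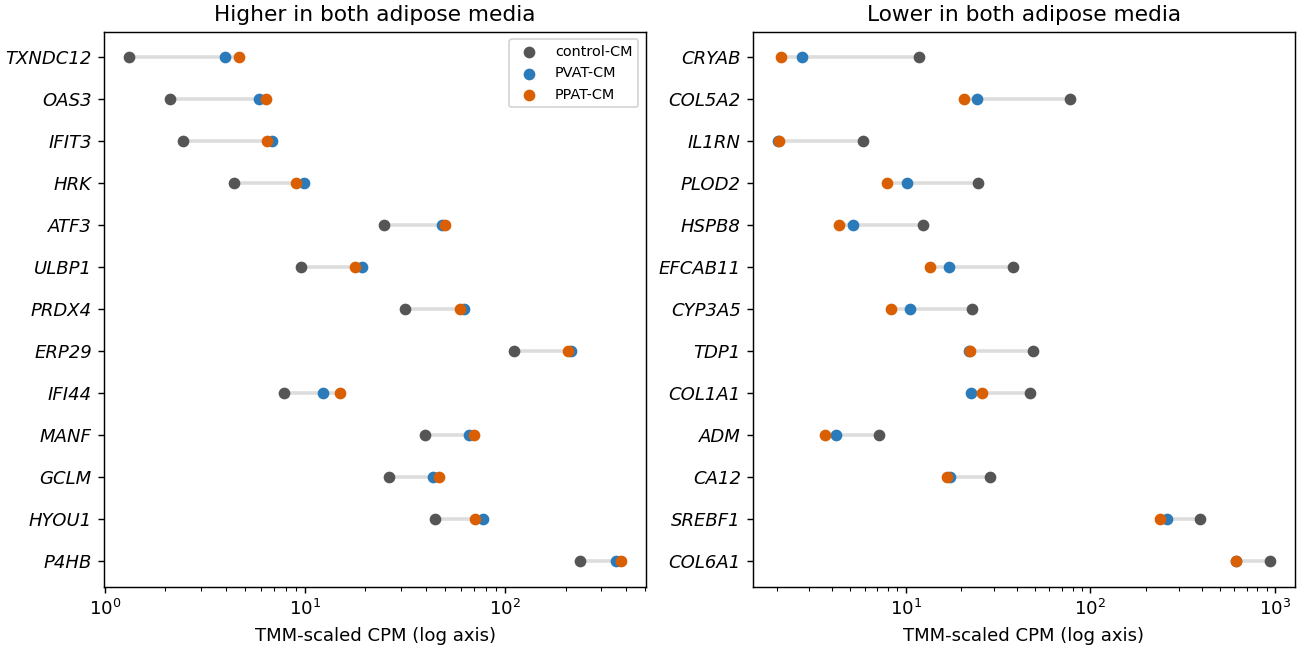
Scaled CPM on a log axis of 13 higher and 13 lower members in control-CM (grey), PVAT-CM (blue) and PPAT-CM (orange), with 1 library per medium and no error bar. In each gene the 2 adipose points lie near each other and away from control, as the choice of genes requires; COL6A1 stood at 614 and 615 scaled CPM in the adipose media against 938 in control-CM.

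By the mean shift CRYAB was lowest of the lower genes and COL5A2 next. CRYAB (chr11:111908565-111923722 in GRCh38), the alpha-B crystallin chaperone, had 180 (control-CM), 39 (PVAT-CM) and 39 (PPAT-CM) counts, or 11.9, 2.74 and 2.12 scaled CPM. It was 4.34-fold (3.05 to 6.30) and 5.60-fold (3.94 to 8.13) lower. Its exons overlap HSPB2 on the other strand. HSPB8, a small heat shock protein that works with BAG3 in clearing misfolded proteins, had 187, 74 and 80 counts and was 2.38-fold (1.81 to 3.15) and 2.83-fold (2.17 to 3.73) lower. These were the 2 members among 18 measured heat shock protein genes, whose median mean shift was 0.02. Of all genes measured 1.02% were lower alike. HSPA6, a strictly stress-induced HSP70, was lower too but not alike, with 100, 61 and 4 counts.

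Of 23 measured extracellular matrix and collagen genes 4 were lower alike and 0 higher, beside 1.02% and 0.898% of all genes measured. COL5A2 (chr2:189031896-189225312), a chain of type V collagen, had 1173 (control-CM), 348 (PVAT-CM) and 379 (PPAT-CM) counts and was 3.17-fold (2.81 to 3.58) and 3.75-fold (3.34 to 4.22) lower. PLOD2, which hydroxylates lysines for collagen cross-links, had 374, 144 and 145 counts and was 2.44-fold (2.01 to 2.98) and 3.13-fold (2.57 to 3.81) lower. COL1A1, of type I collagen, had 718, 323 and 478 counts and was 2.09-fold (1.83 to 2.39) and 1.82-fold (1.62 to 2.05) lower. COL6A1, of type VI collagen, had 14225, 8748 and 11302 counts and was 1.53-fold lower in PVAT-CM (1.49 to 1.57) and in PPAT-CM (1.49 to 1.56); it left the class under total counts.

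The list did not move as 1 block. Past 1.5-fold lower in PPAT-CM were 7 of the 23 genes and higher 3, and in PVAT-CM 6 were lower and 1 higher, with a median mean shift of -0.17. Of all genes measured, 8.71% were lower and 12.0% higher in PPAT-CM, and 3.49% and 3.15% in PVAT-CM. FN1, which encodes fibronectin, was 1.63-fold higher in PVAT-CM and 4.84-fold higher in PPAT-CM, with 1628, 2501 and 9549 counts. LAMA3, a laminin chain, was 1.54-fold and 6.67-fold lower. The 11 fibroblast markers summed to 52.3 (control-CM), 26.0 (PVAT-CM) and 29 (PPAT-CM) scaled CPM. Most of each sum was COL1A1, itself a member chosen as lower in both media, at 47.3, 22.7 and 26.0 scaled CPM. Of the 11 markers COL1A1 was the 1 gene that passed the filter, and 6 had no count in any library. What part other cells had in the collagen values was not tested.

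Of 19 measured hypoxia-response genes 3 were lower alike, beside 1.02% of all genes measured. ADM, the vasodilator peptide adrenomedullin, had 109 (control-CM), 60 (PVAT-CM) and 67 (PPAT-CM) counts and was 1.71-fold (1.23 to 2.38) and 1.97-fold (1.44 to 2.72) lower. CA12, a membrane carbonic anhydrase, had 432, 248 and 307 counts and was 1.64-fold (1.40 to 1.92) and 1.71-fold (1.47 to 1.98) lower, though it left the class under total counts, and PLOD2, above, is the other member. NDUFA4L2, a hypoxia-induced mitochondrial protein, was lower without being alike: 11421, 4304 and 1604 counts, 2.49-fold and 8.63-fold. In PPAT-CM 7 of the 19 were past 1.5-fold lower and 2 higher, in PVAT-CM 4 were lower and 0 higher, and the list's medians were -0.55 and -0.06. Of all genes measured, 8.71% were lower and 12.0% higher in PPAT-CM, and 3.49% and 3.15% in PVAT-CM. Glycolysis had 0 of 21 measured genes in the class, beside 1.92% of all genes measured, a share at which such a list may hold none. Past 1.5-fold higher in PPAT-CM were 3 of the 21 and lower 5, and in PVAT-CM 0 were higher and 0 lower. IL1RN, the interleukin-1 receptor antagonist, had 89, 29 and 38 counts and was 2.88-fold (1.88 to 4.55) and 2.84-fold (1.92 to 4.27) lower.

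EFCAB11 and TDP1 were the 1 pair of nuclear members on the same side whose genes lay within 10000 bases of each other. They point away from each other on chromosome 14, with starts 162 bases apart in GENCODE release 29, and the EFCAB11 window printed above covers both starts. TDP1 (chr14:89954939-90044768), which removes stalled topoisomerase I from DNA ends, had 741 (control-CM), 314 (PVAT-CM) and 409 (PPAT-CM) counts and was 2.22-fold (1.94 to 2.54) and 2.20-fold (1.94 to 2.48) lower. EFCAB11 (chr14:89794669-89954777), an EF-hand protein, had 579, 245 and 250 counts and was 2.22-fold (1.91 to 2.59) and 2.81-fold (2.42 to 3.27) lower. Control-CM was the highest library for both genes, as their choice requires. Both stayed in the class under total counts, while EFCAB11 left it under upper quartile factors. No match to the ISRE, ATF4 or ARE core was found in that window, which says only that these letters are not in it.

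The lower members ACHE, acetylcholinesterase, and COLQ, the collagen tail that anchors it, had 77, 45 and 49 counts and 245, 117 and 133 counts. ACHE was 1.61-fold (1.10 to 2.38) and 1.91-fold (1.31 to 2.78) lower and COLQ 1.97-fold (1.57 to 2.47) and 2.23-fold (1.80 to 2.78). ACHE left the class under total counts and COLQ did not. COLQ overlaps exons of EAF1 on the other strand. GRIK1, a kainate receptor subunit, had 346, 160 and 171 counts and was 2.03-fold (1.68 to 2.47) and 2.45-fold (2.04 to 2.96) lower. Its exons overlap BACH1 on the other strand. CYP3A5, a drug and steroid hydroxylase, had 346, 150 and 153 counts and was 2.17-fold (1.79 to 2.64) and 2.74-fold (2.26 to 3.34) lower. Related CYP3A genes are similar in sequence, and their reads may be divided. Of 7 cytoskeleton and junction genes, from MAPRE2 at 2.07-fold to KANK1 at 1.59-fold by the mean shift, 2 stayed in the class under total counts, and of 4 ion and solute transporters 0 did.

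Mitochondrial RNA was lower in both adipose media, mostly further in PPAT-CM. Of 15 mitochondrial tRNA genes measured 15 were at least 1.5-fold lower in PPAT-CM and 11 in PVAT-CM, and MT-TA, MT-TL2, MT-TH, MT-TP and MT-TL1 were lower alike. Of all genes measured, 8.71% were lower in PPAT-CM, 3.49% were lower in PVAT-CM, and 1.02% were lower alike. MT-TP, the proline tRNA, had 2323 (control-CM), 1285 (PVAT-CM) and 1324 (PPAT-CM) counts and was 1.70-fold (1.59 to 1.82) and 2.13-fold (1.99 to 2.28) lower. MT-TH, the histidine tRNA, had 477, 246 and 268 counts and was 1.82-fold (1.56 to 2.13) and 2.16-fold (1.85 to 2.52) lower. A kit that selects polyadenylated RNA is not made to capture tRNA, and short genes here can also collect reads of the long precursor transcripts. Of the 13 mitochondrially encoded mRNAs 0 were in the class, 13 were past 1.5-fold lower in PPAT-CM and 12 in PVAT-CM, with medians of -1.29 and -0.70. MT-CYB, a subunit of complex III, had 301364, 163330 and 137988 counts, 1.73-fold and 2.65-fold lower. The mitochondrial share of all counts, given above, moved in the same order, and its part in the scaling was measured: without mitochondrial genes in the TMM fit, 106 genes were higher alike and 129 lower. Nuclear-encoded subunits of the respiratory chain had 0 of 43 measured genes in the class, beside 1.92% of all genes measured, and a median mean shift of 0.08.

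**Figure D3:**
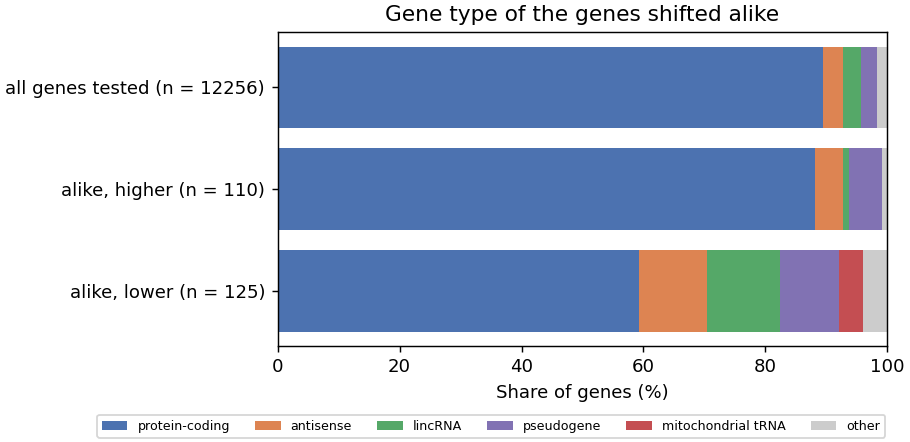
Share of genes by annotated type (horizontal, percent) for all 12256 genes measured and for the 110 higher and 125 lower members. Protein-coding genes were 89.5% of all genes measured, 88.2% of the higher and 59.2% of the lower members.

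The lower members held fewer protein-coding genes than the higher members, a feature the rule did not use. Protein-coding genes were 74 of the 125 lower members (59.2%) and 97 of the 110 higher (88.2%), against 89.5% of all genes measured. Antisense RNAs were 11.2% of the lower and 4.55% of the higher genes, lincRNAs 12.0% and 0.909%, and pseudogenes 9.60% and 5.45%, while their shares of all genes measured were 3.31%, 2.81% and 2.63%. The genes that were lower in both with PPAT-CM further had a protein-coding share of 58.5%, close to that of the lower members. Lower members also had lower counts than genes in general, and the part of expression level in these shares was not tested. Examples are GPC5-AS1, an antisense RNA with 120, 41 and 49 counts, and MAPK8IP1P2, a pseudogene with 115, 32 and 47 counts. The highest mean shift of all members belonged to a pseudogene too, OR7E91P, with 18, 56 and 83 counts, 3.31-fold (1.92 to 5.98) and 3.80-fold (2.27 to 6.73) higher. Reads of pseudogenes may come from near-identical genes.

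Outside the role groups stood 63 higher genes, 13 of them not protein-coding, at 1.52-fold to 3.48-fold by the mean shift, and 83 lower genes, 46 of them not protein-coding, at 1.51-fold to 3.14-fold. The largest shifts among the higher protein-coding ones were those of DNAH5, a dynein heavy chain of motile cilia, with 85, 192 and 304 counts, and of GCNA, a germ cell nuclear protein, with 30, 75 and 88 counts. DNAH5 was 2.40-fold (1.85 to 3.14) and 2.95-fold (2.31 to 3.80) higher and GCNA 2.66-fold (1.72 to 4.21) and 2.42-fold (1.58 to 3.79).

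The thresholds fell inside a continuous spread. DNAJC6 was just inside at 1.501-fold in PPAT-CM, while NR2F2, a nuclear receptor with 1.556-fold in PPAT-CM and slightly under 1.5-fold in PVAT-CM, was just outside. For similarity, KIF9 was inside with its media 1.289-fold apart and SLC13A3 outside with 1.310-fold. On the lower side SLC9A5 (1.5-fold in PPAT-CM) was inside and EME2 (1.499-fold) outside, and MT-TL1 (1.288-fold apart) was inside and MT-CO3 (1.312-fold) outside.

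**Figure D4:**
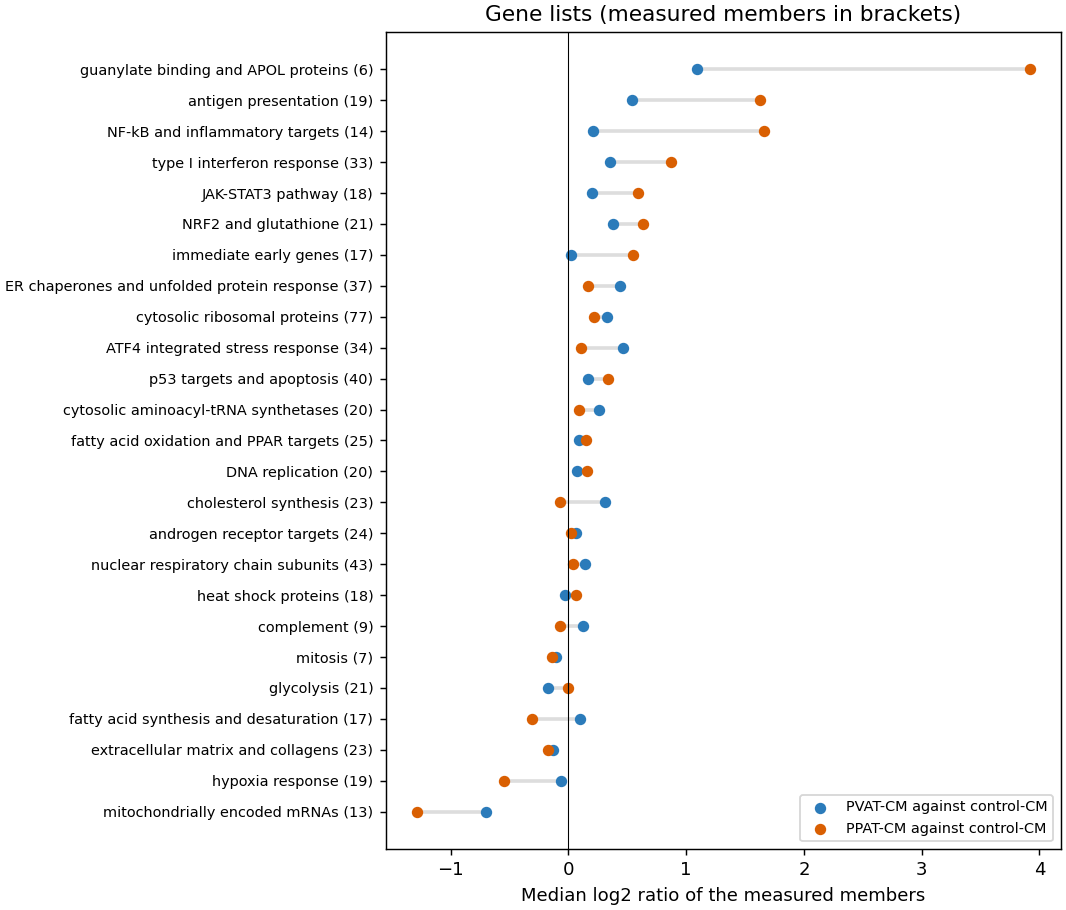
Median log2 ratio against control-CM of the measured members of 25 gene lists (number measured in brackets), in PVAT-CM (blue) and PPAT-CM (orange). The media lay furthest apart in the guanylate binding and APOL list, at 3.92 in PPAT-CM and 1.09 in PVAT-CM; both comparisons share the control-CM library.

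Counted once each, the 25 lists held 584 measured genes, of which 15 were higher alike (2.57%) and 9 lower alike (1.54%), together 4.11% beside 1.92% of all genes measured. The lists were chosen with earlier results of these data known, so this share is a description. With shares this low, lists of this size can hold 0 members without differing from genes in general. NF-kB and inflammatory targets had 0 of 14 measured genes in it, with medians of 1.66 in PPAT-CM and 0.21 in PVAT-CM, and the JAK-STAT3 pathway had 0 of 18, with 0.59 and 0.20. Complement had 0 of 9, DNA replication 0 of 20 and mitosis 0 of 7. RELB, an NF-kB subunit, had 29 (control-CM), 40 (PVAT-CM) and 363 (PPAT-CM) counts and was 1.47-fold and 10.3-fold higher. Some larger shifts in both media were not alike either. DAPK1, a death-associated kinase, had 395, 54 and 17 counts, 6.88-fold and 28.2-fold lower, and ADRA2A, an adrenergic receptor, had 332, 1282 and 4110 counts, 4.11-fold and 10.2-fold higher.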

How the data were processed

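RNA of 3 LNCaP cultures was sequenced, 1 library per medium. The deposited table holds raw counts per gene, whole numbers that the authors did not normalize. The submitters' processing notes name FastQC, Trimmomatic, HISAT2, featureCounts, edgeR and GRCh38; no source used here gives versions, settings or strand, and per the labels' protocols the library kit was the KAPA mRNA HyperPrep. Library totals are given with the results. Counts were scaled by TMM (edgeR 4.0.16, R 4.3.3) and log2 ratios used a pseudocount of 0.5. Printed folds are ratios of scaled counts; class membership and medians used the log2 ratios. A floor of 3 counts gave the limit for a count of 0. As no medium had a replicate, the quasi-likelihood test of edgeR could not be fitted, so no p-value was computed. The class rule was tested on simulated Poisson counts with planted shifts larger than those of most members. How it handles shifts near the thresholds was not tested. Names came from a gene name table (58472 of 58884 rows) and coordinates from GENCODE release 29 (58611 rows). Python 3.11.15, pandas 2.3.3, numpy 2.4.6 and scipy 1.17.1 were used.

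The members and the 30 gene lists (5 of them cell type markers) were chosen with earlier results of these data known. Named genes were the 15 highest and 15 lowest members with a proper symbol, up to 4 members per list, up to 2 genes per list with the largest difference between media, genes next to the thresholds, the 5 largest on opposite sides and a few by name; the others in the role groups were chosen after their values were seen, and some genes the rule takes are not reported. Promoter sequences were found for 9512 of the 12256 genes measured. Alternatives were DESeq2 1.42.0 size factors, total counts, upper quartile factors, TMM without mitochondrial genes, other count minimums, pseudocounts and thresholds, protein-coding genes alone, and interval-based rules.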

Additional observations from a re-analysis of the deposited data

Results flagged for a closer look

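Among the 22 genes on opposite sides of control-CM, the 4 with the largest distance between the media, CD74 aside, were CHRD, GABRE, MICAL1 and SPHK1, each higher in PPAT-CM and lower in PVAT-CM. The difference was not tested, since each medium had 1 library. CHRD, which encodes the BMP antagonist chordin, had 53 (control-CM), 26 (PVAT-CM) and 461 (PPAT-CM) counts, a distance between the media of 3.76 on the log2 scale. GABRE, a GABA receptor subunit, had 107, 66 and 589 counts and a distance of 2.78. MICAL1, an actin-oxidizing enzyme, had 1107, 587 and 4195 counts and a distance of 2.47. SPHK1, which makes sphingosine 1-phosphate, had 38, 22 and 137 counts and a distance of 2.25, and its interval in PVAT-CM included 1 (1.62-fold lower, 0.936 to 2.88). CD74, the invariant chain of MHC class II, had 1, 0 and 162 counts, so it was higher in PPAT-CM, while control-CM and PVAT-CM were both under the floor of 3 counts and have no order.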

How the results depend on the processing

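The counts of members depended on scaling, filter and thresholds. Given as higher and lower, they were 322 and 56 with total counts, 267 and 364 at a mean count of at least 10, 49 and 44 at 200, 974 and 2372 with no filter, 512 and 415 at 1.3-fold, and 12 and 17 at 2-fold; among protein-coding genes alone 97 were higher and 74 lower. Total counts kept 95 of the 110 and 46 of the 125 members. With DESeq2 size factors (117 and 118), upper quartile factors (102 and 148), TMM without mitochondrial genes (106 and 129), a pseudocount of 5 (102 and 112), similarity within 1.2-fold (91 and 94) or 1.5-fold (150 and 163), and an interval-based similarity (89 and 128) the counts stayed within 1.5 times the reported ones. Of 625 values of 125 named genes under 5 settings, 571 stayed within their counting interval, 54 moved and 0 members changed side. Of 225 list medians 195 stayed and 30 moved. No paired analysis was possible because each medium had 1 library. No library could be left out for the same reason, and depth limits the members with under 100 counts in control-CM.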
